A study of Homo sapiens with 4 samples.

Results

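The genes described here are 9 regulators and partners of NRF2, the transcription factor at the centre of the cellular antioxidant response. They were chosen by name, and all 9 were found among the 57905 Ensembl identifiers in the count tables. They are the transcription factors *NFE2L2* (encoding NRF2) and *NFE2L1* (encoding NRF1), the ubiquitin ligase subunits *KEAP1* and *CUL3*, the repressors *BACH1* and *BACH2*, and the small MAF partners *MAFF*, *MAFG* and *MAFK*. RNA sequencing was performed in wild type U87MG cells, an established human glioblastoma line, to examine the effect of the fungal metabolite chaetocin. The paper describes chaetocin as an unspecific inhibitor of histone methyltransferases, SUV39H1 among them. It also names thioredoxin reductase, encoded by *TXNRD1*, as inhibited by chaetocin. The control group was 2 untreated samples and the chaetocin group was 2 samples given 50 nM chaetocin for 24 h. Chaetocin was given in DMSO whereas control cells received nothing, so the drug and its solvent cannot be told apart. Nothing in the labels says that the replicates came from separate cultures, so the p-values measure only the spread between these samples.

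NRF2 is made continuously and destroyed continuously in unstressed cells. KEAP1 holds it in the cytoplasm and presents it to a ligase built on the scaffold CUL3, and the proteasome degrades the tagged protein. Oxidants and electrophiles modify cysteines of KEAP1, after which NRF2 accumulates, pairs with a small MAF protein and binds antioxidant response elements in the promoters and enhancers of its targets. BACH1 and BACH2 pair with the same small MAF proteins and repress the same kind of element, and heme removes BACH1 from DNA. NRF1 is anchored in the endoplasmic reticulum and drives proteasome genes when the proteasome is impaired. Much of this control acts on proteins, which RNA counts do not measure.

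The totals of the count tables ranged from 21241984 to 32590479 per sample, and 3 counts corresponded to between 0.0844 and 0.138 normalized CPM (reads of a gene relative to its library, with libraries scaled by TMM factors). Such floors cover counting error only, since PCR copies are not independent molecules. The 2 chaetocin samples differed from each other more than the 2 controls did, with a chi-square per degree of freedom of 61.2 against 20.7 over the genes tested. Its expected counts came from the totals over these genes, without TMM factors. Of 7 genes known to be expressed in U87MG cells (among them *VIM*, *CD44* and *FN1*), all were detected in each sample, and *CDKN2A* and *CDKN2B*, deleted in this line, had 0 counts throughout, while *MTAP*, their neighbour and also deleted, had 6 and 10 counts in control cells and 5 and 1 with chaetocin.

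Sequence upstream of the genes was examined first, because some genes of this network are themselves known to carry response elements. RefSeq start sites on GRCh38.p14 gave 15 windows of 250 bases upstream for 8 of the 9 genes. *MAFK* had no window. The core of the antioxidant response element was searched as TGACNNNGC on both strands, where N is any base. It was found in 2 windows, those of *KEAP1* (2 matches) and *MAFF* (1 match), against 10.91% of all 35116 promoter windows of this length. A related core, TGAGNNNGC, was found in windows of *NFE2L2* (2 matches) and *KEAP1* (1 match), against 14.76% of all windows. The core of the MAF recognition element, searched as GCTGANTCA, was in none of the 15 windows and in 1.108% of all windows. The first 2 motifs differ at their last base before the gap, so no site matches both on 1 strand, while a match of the last motif can share bases with either. The sites are printed on the strand of the gene, with the match in capitals. Where the match lay on the other strand, the capitals read as its reverse complement.
KEAP1, chr19:10502807-10502835, minus strand: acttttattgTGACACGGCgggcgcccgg
KEAP1, chr19:10502784-10502812, minus strand, match on the other strand: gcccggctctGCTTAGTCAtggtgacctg
MAFF, chr22:38201862-38201890, plus strand, match on the other strand: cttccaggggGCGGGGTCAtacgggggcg
NFE2L2, chr2:177264259-177264287, minus strand: gtctggggacTGAGCCCGCtcgcgtgggc
NFE2L2, chr2:177264132-177264157, minus strand: gctggccgtcTGAGCCGGCgcggccc
KEAP1, chr19:10502956-10502984, minus strand, match on the other strand: acgcggctaaGCGCGCTCAgggtcgcgtg
These letters describe the windows only. The TGACNNNGC matches began 54 and 31 bases before the start site in *KEAP1* and 122 bases before it in *MAFF*. The TGAGNNNGC matches began 146 and 16 bases before it in *NFE2L2* and 203 bases before it in *KEAP1*.

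The window of *MAFG* is printed in full because *MAFG* was the gene with the clearest change and because it shares this stretch with a divergent long noncoding RNA, *MAFG-DT* (also named *MILIP*, ENSG00000265688). Capitals mark the 157 bases that lie in an exon of *MAFG-DT* in GENCODE v29.
MAFG, chr17:81927736-81927985, minus strand: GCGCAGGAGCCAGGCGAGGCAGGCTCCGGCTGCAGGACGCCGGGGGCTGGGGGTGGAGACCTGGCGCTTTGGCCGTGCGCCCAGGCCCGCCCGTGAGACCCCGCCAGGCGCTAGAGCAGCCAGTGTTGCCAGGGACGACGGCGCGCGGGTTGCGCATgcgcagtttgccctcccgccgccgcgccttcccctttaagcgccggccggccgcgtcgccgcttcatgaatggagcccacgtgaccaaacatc
The window was rich in G and C (73.2% of bases) and held 31 CG dinucleotides. It contained none of the 3 motifs searched.

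Of the 9 genes, 1 was higher upon chaetocin treatment and 0 were lower with the threshold for adjusted p-values set at 0.05 (quasi-likelihood test of edgeR, adjusted by Benjamini-Hochberg over 16416 genes, n = 2 per group). Over all genes tested, 1.85% were called, with 1.11% higher and 0.743% lower. At an unadjusted p under 0.05 there were 3 of the 9 genes, *MAFG*, *NFE2L1* and *KEAP1*, and 3339 of all genes tested (20.3%). With DESeq2, *MAFG* was called higher and *NFE2L1* lower, against 2.35% and 2.93% of all genes. In 6 of the 9 genes the groups did not overlap in normalized CPM, against 52.7% of all genes. Both chaetocin samples lay above both controls in *MAFG* and *KEAP1* (26.8% of all genes) and below both controls in *NFE2L1*, *NFE2L2*, *CUL3* and *BACH1* (26% of all genes). The median log2 fold change was -0.15 over the 9 genes and 0.01 over all genes tested. With libraries scaled by totals alone these medians were 0.0014 and 0.17, and *CUL3* and *BACH2* turned slightly positive. In these bulk samples, fewer cells of a kind and less RNA per cell cannot be told apart.

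**Figure D1:**
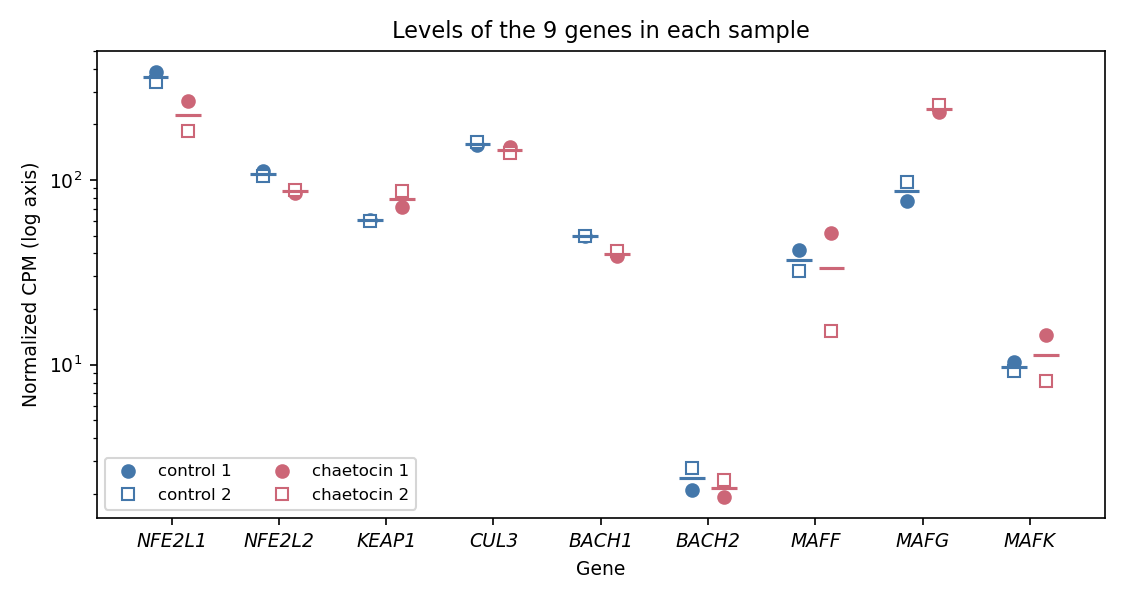
Normalized CPM (log axis) of each of the 9 genes in each of the 4 samples, with circles for replicate 1, squares for replicate 2 and a bar for the group mean. *MAFG* is the gene whose chaetocin samples (234 and 253 CPM) stand well above its controls (77.1 and 97.4 CPM), and *MAFF* shows the widest gap between chaetocin samples (51.7 and 15.3 CPM).

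Among the small MAF partners, *MAFG* (ENSG00000197063) rose. Small MAF proteins have a DNA-binding zipper but no activation domain, so they act through their partner, or as repressors when paired with each other. *MAFG* had 1881 and 2798 counts in untreated cells and 5082 and 8985 counts upon treatment. In normalized CPM these were 77.1 and 97.4 in control cells and 234 and 253 with chaetocin. The lower chaetocin sample was thus far above the higher control. The fitted change was 2.79-fold (95% interval 2.13 to 3.64), or 1.48 on the log2 scale (standard error 0.17, edgeR adjusted p = 0.0173). *MAFG* ranked 17 by p-value and 608 by log2 fold change among the 16416 genes tested. Since 182 genes were called higher, most genes with a larger fold change were not called. *MAFG* was called under each of 13 alternative settings, with log2 fold changes of 1.31 to 1.65 and adjusted p-values of 4.92e-13 to 0.0234 across the edgeR and DESeq2 fits.

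The genes on either side of *MAFG* were examined after its values were seen. *MAFG-DT* had 109 and 152 counts in control cells and 274 and 340 counts with chaetocin, and the groups did not overlap. Its log2 fold change was 1.18 (standard error 0.24), just short of the threshold (edgeR adjusted p = 0.0514), and it was called in 7 of the 13 alternatives, without chaetocin sample 1 or 2 among them (adjusted p from 0.000554 to 0.158). *SIRT7*, a deacetylase gene on the same strand whose exons overlap those of *MAFG* by 105 bases, had 22.1 and 23.6 CPM in control cells and 25.6 and 34.6 CPM with chaetocin. The log2 fold change of *SIRT7* was 0.40 (95% interval -0.03 to 0.83, edgeR adjusted p = 0.274), and it was 0.60 and called without chaetocin sample 1 (edgeR adjusted p = 0.0127) and 0.16 without chaetocin sample 2 (edgeR adjusted p = 0.563). The strand setting and the overlap rule of the counting are not given in the sources used here, so reads in the shared bases could be assigned to either gene.

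*MAFF* (ENSG00000185022) did not follow *MAFG*, and its chaetocin samples lay on opposite sides of the controls. It had 41.5 and 32.2 CPM in control cells against 51.7 and 15.3 CPM in chaetocin samples 1 and 2, which differed 3.38-fold from each other. The fit put its log2 fold change at -0.15 (95% interval -1.31 to 1.01, edgeR adjusted p = 0.902). *MAFF* is a stress- and serum-inducible member of the family. Without chaetocin sample 1 the log2 fold change was -1.27 (edgeR adjusted p = 0.000521), and without chaetocin sample 2 it was 0.48 (edgeR adjusted p = 0.0924). The direction for *MAFF* therefore rested on which chaetocin sample was used.

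*MAFK* (ENSG00000198517) was the least abundant of the small MAF genes and showed the same arrangement on a smaller scale. It had 10.3 and 9.22 CPM in control cells and 14.4 and 8.11 CPM in chaetocin samples 1 and 2, a 1.77-fold gap between the treated samples. The log2 fold change was 0.20 (95% interval -0.45 to 0.84, edgeR adjusted p = 0.748), and it turned to -0.26 without chaetocin sample 1. Exons of *TMEM184A* on the opposite strand overlap those of *MAFK* by 809 bases, but *TMEM184A* had at most 7 counts in a sample.

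To compare the small MAF genes with each other, levels were divided by the union of exon lengths to give normalized CPM per kilobase. On this scale their sum was 24.5 and 26.5 in control cells and 57.2 and 53.0 with chaetocin. *MAFG* made up 60.3% and 70.5% of the sum in control cells and 78.3% and 91.4% with chaetocin. Both treated samples thus had a larger *MAFG* share than either control. The share of *MAFF* was 30.2% and 21.7% in control cells and 16.1% and 5.14% with chaetocin, although the *MAFF* level itself was highest in chaetocin sample 1. *MAFK* held 9.43% and 7.82% in control cells and 5.64% and 3.43% with chaetocin. With 2 samples per group these shares are given as a description. With the longest transcript as the length, the mean *MAFG* share was 55.0% in control cells and 78.8% with chaetocin, in place of 65.4% and 84.8%.

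**Figure D2:**
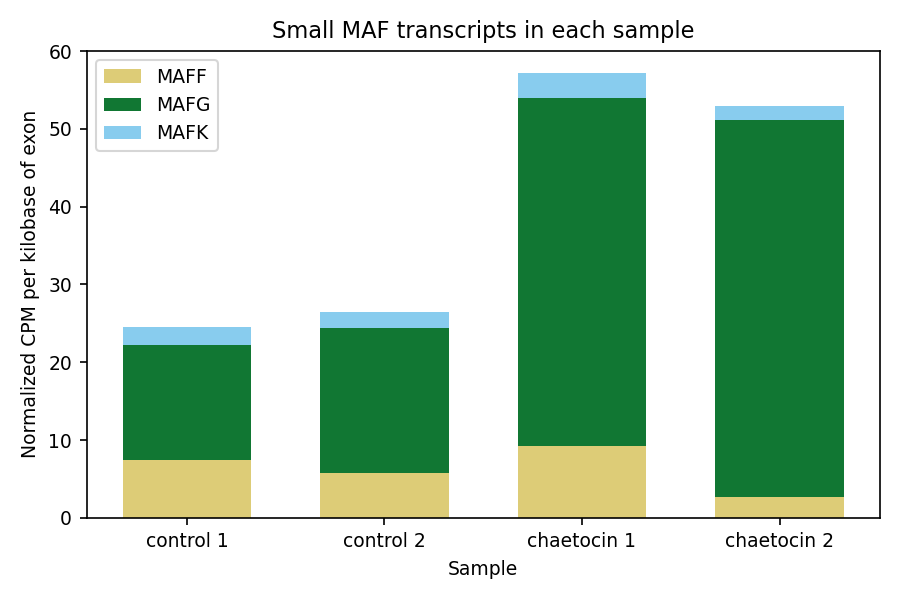
Stacked bars of normalized CPM per kilobase of exon for *MAFF*, *MAFG* and *MAFK* in each of the 4 samples, starting at 0. The bars of the controls reach 24.5 and 26.5 and those of the treated samples 57.2 and 53.0, and *MAFG* takes the largest part of each bar.

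The transcription factors *NFE2L1* and *NFE2L2* were both below their controls in both chaetocin samples, and neither passed the threshold. *NFE2L1* (ENSG00000082641) had 384 and 337 CPM in control cells and 268 and 183 CPM with chaetocin. Its log2 fold change was -0.68 (standard error 0.21, 95% interval -1.15 to -0.20, edgeR adjusted p = 0.126). The negative sign held in all 13 alternatives, from -0.98 to -0.43, and *NFE2L1* was called lower in 4 of them. Among these were the fit with no filter on low counts (edgeR adjusted p = 0.00427), DESeq2 (adjusted p = 0.0304) and the fit without chaetocin sample 1 (edgeR adjusted p = 0.00056).

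*NFE2L2* (ENSG00000116044), the gene of NRF2 itself, was not called. It had 112 and 104 CPM in control cells and 85.3 and 88.2 CPM in chaetocin treated cells, where replicates were close in both groups. The log2 fold change was -0.32 (95% interval -0.64 to 0.00, edgeR adjusted p = 0.247), a fitted 0.802-fold level. *NFE2L2* was called in none of the 13 alternatives, in which the log2 fold change ranged from -0.38 to -0.15. The largest exon overlap of *NFE2L2*, 1054 bases, was with *AC019080.1* on the same strand. That gene had 29 and 42 counts in control cells and 22 and 47 with chaetocin. On the opposite strand, *AC079305.1* shares 190 exon bases and had 3 and 3 counts in control cells and 6 and 4 with chaetocin. *AGPS*, which overlaps 54 exon bases of *NFE2L2* on the opposite strand, had a log2 fold change of -0.25 (edgeR adjusted p = 0.393). How reads in shared bases were counted is not given.

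The ligase subunits *KEAP1* and *CUL3* were not called either. *KEAP1* (ENSG00000079999), the adaptor and oxidant sensor, had 60.6 and 60.0 CPM in control cells and 71.6 and 86.8 CPM with chaetocin. Its log2 fold change was 0.39 (95% interval 0.04 to 0.74, edgeR adjusted p = 0.204), and without chaetocin sample 1 it was 0.53 and called (edgeR adjusted p = 0.0109), while without chaetocin sample 2 it was 0.24. *CUL3* (ENSG00000036257), the scaffold, stayed within a narrow range, with 155 and 159 CPM in control cells and 151 and 139 CPM with chaetocin. Its log2 fold change was -0.12 (95% interval -0.44 to 0.21, edgeR adjusted p = 0.691), and it was 0.043 when libraries were scaled by their totals alone. That scaling moved the median of all genes from 0.01 to 0.17, and relative to this median *CUL3* was at -0.13.

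The repressors *BACH1* and *BACH2* did not pass the threshold. *BACH1* (ENSG00000156273), the heme-sensing repressor of *HMOX1*, had 49.5 and 49.8 CPM in control cells and 38.5 and 41.3 CPM with chaetocin. The groups did not overlap, and the log2 fold change was -0.32 (95% interval -0.65 to 0.02, edgeR adjusted p = 0.269). *BACH2* (ENSG00000112182), best known as a regulator of B cells, was the least abundant of the 9 genes, with 51 and 79 counts in control cells and 42 and 84 counts with chaetocin. The fit gave a log2 fold change of -0.17 (95% interval -0.91 to 0.57, edgeR adjusted p = 0.820). That interval allows both a 0.534-fold and a 1.49-fold level, and the sign of the log2 fold change turned when libraries were scaled by totals alone (0.0014) or without control sample 2 (0.035).

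**Figure D3:**
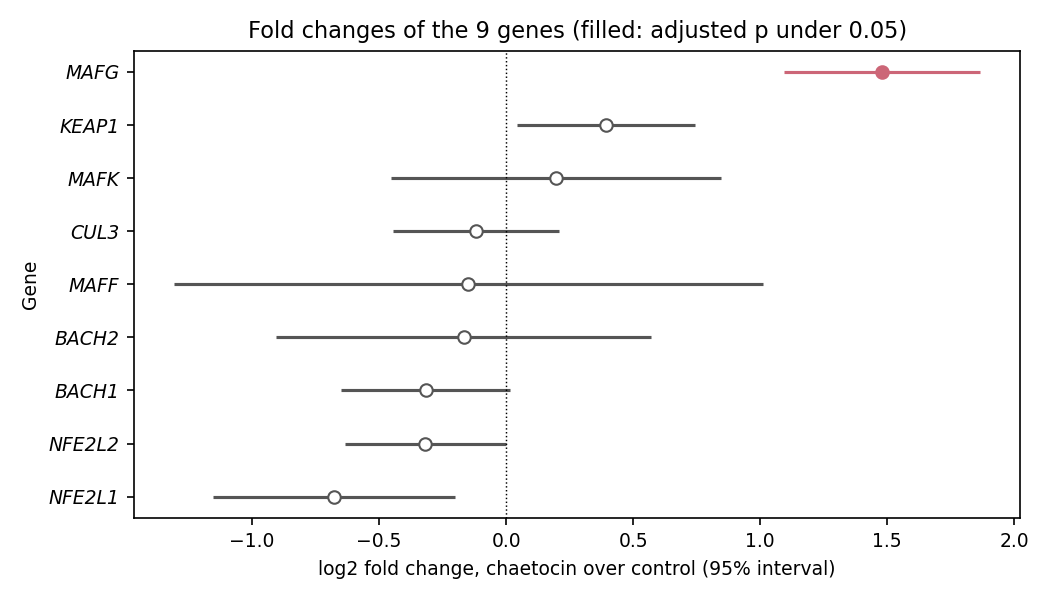
Log2 fold change of chaetocin over control for each of the 9 genes with its 95% interval from the edgeR fit (n = 2 per group). The filled point, *MAFG* at 1.48, is the gene called at an adjusted p under 0.05; the widest interval is that of *MAFF*, from -1.31 to 1.01, and the points of *CUL3* and *BACH2* change sign when libraries are scaled by their totals alone.

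Per kilobase of exon, *NFE2L1* was the most abundant of the 9 transcripts in control cells and *BACH2* the least, with means of 61.9 and 0.247 CPM per kilobase. Between them stood *NFE2L2* at 18.1, *MAFG* at 16.7, *KEAP1* at 16.0, *CUL3* at 13.7, *MAFF* at 6.57, *BACH1* at 6.44 and *MAFK* at 2.19 CPM per kilobase. In this order the control samples of *NFE2L2* and *MAFG*, of *MAFG* and *KEAP1*, and of *MAFF* and *BACH1* overlapped, and other neighbours did not. With chaetocin *MAFG* moved to the first place with 46.6 CPM per kilobase, before *NFE2L1* with 38.7. These 2 overlapped between samples, since *MAFG* had 44.7 and 48.5 and *NFE2L1* had 46.1 and 31.4 CPM per kilobase. *KEAP1* (21.1) then stood above *NFE2L2* (14.5), with no overlap between their samples. This ranking holds for the union of exons as length. With the longest transcript instead, *KEAP1* was below *CUL3* in control cells (ratios of 0.892 and 0.859) and below *NFE2L2* with chaetocin (ratios of 0.811 and 0.950).

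Ratios between these genes within a sample do not depend on how libraries are scaled, although their size depends on the exon length used. The ratio of *KEAP1* to *NFE2L2* per kilobase was 0.862 and 0.914 in control cells and 1.34 and 1.56 with chaetocin, so both treated samples lay above both controls. *KEAP1* to *CUL3* gave 1.20 and 1.15 in control cells and 1.46 and 1.91 with chaetocin. For *BACH1* to *NFE2L2*, repressor to activator, the values were 0.343 and 0.370 in control cells and 0.350 and 0.363 with chaetocin, and the treated values lay between the controls. *NFE2L1* to *NFE2L2* was 3.52 and 3.31 in control cells and 3.23 and 2.13 with chaetocin. The change in *KEAP1* to *NFE2L2* was the largest of these 4 ratios, with a mean 1.63-fold the control mean.

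Known targets of NRF2 and BACH1 were read from the same fit to place them beside the regulators. The list was made with earlier results of these data known, so its counts beside the shares over all genes are a description only. Whether the regulators caused the changes was not tested. Of 33 listed targets 31 were tested, of which 6 were higher and 0 were lower (1.11% and 0.743% of all genes), and 24 had both chaetocin samples above both controls (26.8% of all genes). With DESeq2, 14 of the 31 were called higher and 0 lower, against 2.35% and 2.93% of all genes. The median log2 fold change of the 31 was 0.58. *HMOX1*, which degrades heme, had 127 and 172 CPM in control cells and 1198 and 1276 CPM with chaetocin (log2 fold change 3.05, edgeR adjusted p = 0.00358). *TXNRD1*, thioredoxin reductase, had 489 and 546 CPM in control cells and 1253 and 1979 CPM with chaetocin (log2 fold change 1.64, edgeR adjusted p = 0.0306). *NQO1*, a quinone reductase, had a log2 fold change of 1.12 (edgeR adjusted p = 0.0306). The subunits of glutamate-cysteine ligase, the first enzyme of glutathione synthesis, were at 0.82 for *GCLM* (edgeR adjusted p = 0.0341) and 0.65 for *GCLC*, which was not called (edgeR adjusted p = 0.163) except in some alternatives such as the fit without chaetocin sample 1 (0.96, against 0.23 without chaetocin sample 2). Of the 6 calls, 2 remained without control sample 2 and 3 without control sample 1. Without control sample 2, *NQO1* and *GCLM* were not called (edgeR adjusted p = 0.121 and 0.124), nor were *UGDH* and *SLC7A11*, the last 2 of the 6, named here after their values were seen (0.180 and 0.333). *GCLM*, *UGDH* and *SLC7A11* were not called without control sample 1 (edgeR adjusted p = 0.237, 0.295 and 0.0824). *SLC7A11* stood at the threshold (edgeR adjusted p = 0.0496) and was called in 7 of the 13 alternatives. The log2 fold change of *MAFG* thus lay between those of *NQO1* and *TXNRD1*, while *NFE2L2* had a negative one and was not called. In 2 of the 31 targets both chaetocin samples lay below both controls (26% of all genes). These were *SESN2* (-0.57, edgeR adjusted p = 0.200) and *BLVRB* (-0.33, edgeR adjusted p = 0.355), also named after their values were seen.

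Proteasome genes were read as known targets of NRF1. Of 31 tested, 0 were called in either direction by edgeR or DESeq2, and 1 had an unadjusted p under 0.05 with edgeR (20.3% of all genes). In 15 of the 31 both chaetocin samples lay below both controls (26% of all genes), and in 1 both lay above (26.8%). The median log2 fold change was -0.20, and 28 of the 31 were below 0. With libraries scaled by totals alone the median was -0.04 with 18 below 0, and relative to the median of all genes it was -0.20 in the first scaling and -0.21 in the other. The 2 largest changes were those of *PSMB6*, a catalytic core subunit (-0.38, edgeR adjusted p = 0.338), and *PSMD2*, a subunit of the regulatory particle (-0.37, edgeR adjusted p = 0.316). Both were called lower without chaetocin sample 1, at -0.72 for *PSMB6* and -0.50 for *PSMD2* (edgeR adjusted p = 0.00205 and 0.0494). Without chaetocin sample 2 they were at -0.11 and -0.26 (edgeR adjusted p = 0.633 and 0.346).

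The 19 genes that build, modify or bypass the KEAP1 ligase, or process NRF1, had 0 edgeR calls in either direction, 4 unadjusted p-values under 0.05 (20.3% of all genes), 1 call with DESeq2 (*SEL1L*, lower, against 2.93% of all genes) and a median log2 fold change of -0.03, which was 0.14 with libraries scaled by totals alone. The largest changes were in *SEL1L*, a component of the endoplasmic reticulum ligase that handles NRF1 (-0.72, edgeR adjusted p = 0.0586), and in *UBE2M*, which attaches NEDD8 to cullins (0.49, edgeR adjusted p = 0.107). *SEL1L* had 241 and 261 CPM in control cells and 141 and 164 CPM with chaetocin, so its groups lay well apart, and it was called in 5 of the 13 alternatives, without chaetocin sample 1 or 2 among them. For *UBE2M* the control samples had 125 and 120 CPM and both chaetocin samples 172 CPM, with calls in 3 of the 13 alternatives, again without either chaetocin sample.

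The tested genes whose pattern over the 4 samples lay closest to *MAFG* were *FAM43A*, *SH3TC2* and *C3orf80*, with Euclidean distances of 0.094, 0.113 and 0.116 between log2 CPM values centred on their mean. Their log2 fold changes were 1.68, 1.47 and 1.57, and values near that of *MAFG* follow from picking them by likeness over the same samples. Of these *SH3TC2* was called (edgeR adjusted p = 0.0412). Closest to *NFE2L1* were *STARD13*, *PER1* and *EFNB2* at distances of 0.053, 0.057 and 0.058, with log2 fold changes of -0.73, -0.64 and -0.62. None of these 3 was called by edgeR (adjusted p from 0.113 to 0.173), and their fold changes likewise follow from how they were picked.

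Markers of other cells were read because *BACH2* is chiefly known from B cells. Of 16 leukocyte markers, 6 were tested. *PTPRC* and *ITGAM* were called higher, and both passed the filter on low counts only through the chaetocin samples, so their calls are not read against the share over all genes. The counts were, for *PTPRC*, 0 and 1 in control cells against 15 and 27 with chaetocin, and for *ITGAM* 0 and 1 against 24 and 29 (edgeR adjusted p = 0.0412 and 0.0341). The call of *PTPRC* was lost without control sample 1 (edgeR adjusted p = 0.0964), with DESeq2 (adjusted p = 0.0553) and with libraries thinned to the smallest (edgeR adjusted p = 0.0586), and that of *ITGAM* with thinning (edgeR adjusted p = 0.0506). Both chaetocin samples were also above both controls in *CD2*, with 27 and 35 counts against 40 and 96, and in *CD14*, with 7 and 11 against 10 and 41. *CD79A*, too low to be tested, had 2 and 0 counts against 11 and 10. Among other markers too low to be tested, *NKG7* had 2 and 3 counts against 3 and 11. *PAX5* had 2 and 0 against 1 and 4, and *CD79B*, the partner of *CD79A*, had 5 and 1 against 1 and 1. The markers from *CD2* to *CD79B*, and the 2 most abundant markers given next, were named after their values were seen. The summed level of the 16 was 44.4 to 47.7 CPM in control cells and 39.0 to 52.1 CPM with chaetocin. Most of this sum came from *CSF1R*, with 27.2 and 22.0 CPM in control cells and 32.7 and 15.1 CPM with chaetocin, and *ITGAX*, with 15.4 and 23.9 CPM against 14.5 and 17.4 CPM, and the groups of both overlapped (log2 fold changes -0.05 and -0.30). The markers *MS4A1* and *CD3E* were at 0 in all samples. Of 7 erythroid markers 6 were at 0 in all samples and the other, *GATA1*, had 1 count in 1 sample. The 7 genes typical of U87MG cells had a median log2 fold change of -0.80 with 0 called by edgeR (5 with an unadjusted p under 0.05, against 20.3% of all genes, and 4 called lower by DESeq2, against 2.93%), and their summed level was 16466 and 13130 CPM in control cells and 10171 and 5768 CPM with chaetocin. The largest changes among them were those of *CD44* (-1.20, edgeR adjusted p = 0.0699) and *SPARC* (-1.05, edgeR adjusted p = 0.0799), both called lower in 6 of the 13 alternatives, without chaetocin sample 1 (-1.68 and -1.49) or 2 (-0.85 and -0.72) among them. The part of these shifts in the levels of the 9 genes was not tested.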

How the data were processed

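Polyadenylated RNA of 4 U87MG samples was sequenced, and for each sample the authors deposited a table of raw, unnormalized counts by gene. The submitters' processing notes name cutadapt, TopHat, TopHat2, SAMtools and the build GRCh37. The counting tool, its strand setting and its annotation are not given in the sources used here. Groups and replicate numbers came from the labels.

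Symbols were matched for 51996 of 57905 identifiers. The filterByExpr function (minimum count 10) kept 16416 genes, which were tested with edgeR 4.0.16 in R 4.3.3 (TMM, robust quasi-likelihood fit, no covariate). P-values were adjusted by Benjamini and Hochberg over all genes tested, with a threshold of 0.05, and intervals are 95%. DESeq2 1.42.0, other scalings and filters, thinning, a replicate block and leaving out each sample were alternatives. Exon lengths and overlaps came from GENCODE v29 (GRCh38) and promoter windows from RefSeq (GRCh38.p14), while reads were aligned to another build.

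The 9 genes and all lists were chosen with earlier results of these data known. Named genes were the 9, called genes of each list (at most 4 by p) or its 2 largest changes, 5 set targets (*HMOX1*, *NQO1*, *TXNRD1*, *GCLM* and *GCLC*), and the 3 closest patterns to the 2 genes with the lowest p. Some genes of the lists are not reported here.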

Additional observations from a re-analysis of the deposited data

How the results depend on the processing

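The 9 log2 fold changes were each recomputed under 13 alternatives, and 105 of these values kept their direction and their side of the threshold, 6 gained a call and 6 changed sign. *NFE2L1* was called at -0.70 with no filter on low counts, at -0.69 with DESeq2 and at -0.70 with the replicate block. Scaled by library totals alone, an alternative chosen after seeing the data, *CUL3* was at 0.043 and *BACH2* at 0.0014. Leaving out 1 sample at a time, log2 fold changes ranged from -0.98 to -0.43 for *NFE2L1*, 0.24 to 0.53 for *KEAP1*, -0.36 to 0.035 for *BACH2*, -1.27 to 0.48 for *MAFF* (0.037 without control sample 1) and -0.26 to 0.55 for *MAFK*; an arm of 1 sample was assumed to vary like the other group.

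The counts of genes called higher and lower were 182 and 122. They were 360 and 73 by library totals, 787 and 759 with no filter, 114 and 80 with a minimum of 10 counts per sample, 385 and 481 with DESeq2, and 1036 and 1053 with the replicate block. Leaving out each sample gave 215 to 1332 higher and 97 to 1673 lower, the highest being without chaetocin sample 1 and the next, 712 and 940, without chaetocin sample 2. Of the 9 genes, 1 was called lower with no filter, with DESeq2 and with the block, and 1 to 2 higher and 0 to 2 lower with a sample left out. Samples share replicate numbers across groups in 2 pairs, the labels give no shared batch for them, and the correlation of same-numbered deviations was 0.123, so the block is not taken to pair the samples. It changed no other call among the 9. The cause of these shifts was not tested.

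With the longest transcript as length, the control means became 35.8% for the *MAFF* share, 55.0% for the *MAFG* share, 31.4 CPM per kilobase for the small MAF sum, 1.59 for *MAFG* to *MAFF*, 0.228 for *BACH1* to *NFE2L2*, 0.539 for *KEAP1* to *NFE2L2*, 0.875 for *KEAP1* to *CUL3* and 1.99 for *NFE2L1* to *NFE2L2*. The chaetocin means became 61.8, 0.227, 0.880, 1.25 and 1.56 for the sum and the last 4 ratios, in that order. The mean *MAFG* to *MAFF* ratio with the union of exons was 2.62 in control cells and 11.3 with chaetocin, and the latter became 6.86. The mean *MAFF* share with chaetocin went from 10.6% to 15.9%. *KEAP1* thereby moved below *NFE2L2* with chaetocin and below *CUL3* in control cells. Of the 9 genes *BACH2* had the fewest reads, 42 to 84 per sample.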

Other observations

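A further list of 8 genes, all tested, encodes proteins that bind KEAP1 or NRF2. Some of them can displace NRF2 from KEAP1, but not all are known to do so. Of the 8, 0 were called by edgeR, 4 had an unadjusted p under 0.05 (20.3% of all genes) and 1 (*SQSTM1*) was called higher by DESeq2 (2.35% of all genes). In 4 of them both chaetocin samples lay above both controls (26.8% of all genes), and the median log2 fold change was 0.25 (0.41 with libraries scaled by totals alone). *SQSTM1*, which encodes the autophagy receptor p62, had 467 and 707 CPM in control cells and 766 and 1429 CPM with chaetocin (log2 fold change 0.90, edgeR adjusted p = 0.166), and it was called in 4 of the 13 alternatives, without chaetocin sample 1 among them (1.29), and was at 0.38 without chaetocin sample 2 (edgeR adjusted p = 0.342). *AMER1* had 4.75 and 4.38 CPM in control cells and 2.44 and 2.70 CPM with chaetocin (log2 fold change -0.82, edgeR adjusted p = 0.139). *SQSTM1* was thus higher in both treated samples and *AMER1* lower, and the controls of *SQSTM1* were themselves apart.

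Among 10 coregulators of NRF2, 0 were called by edgeR, 2 had an unadjusted p under 0.05 (20.3% of all genes), 1 (*ATF3*) was called higher by DESeq2 (2.35% of all genes), and the median log2 fold change was -0.18 with 8 below 0 (-0.02 with 5 below 0 when libraries were scaled by totals alone). The stress-induced factor *ATF3*, which can bind NRF2, had 15.4 and 12.7 CPM in control cells and 26.3 and 25.6 CPM with chaetocin (log2 fold change 0.89, edgeR adjusted p = 0.0503). It was just outside the threshold and was called in 7 of the 13 alternatives, without chaetocin sample 1 or 2 among them. *CHD6*, a chromatin remodeller, had a log2 fold change of -0.38 (edgeR adjusted p = 0.338), and -0.73 without chaetocin sample 2 (edgeR adjusted p = 0.00675) against -0.10 without chaetocin sample 1 (edgeR adjusted p = 0.632).

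The other cullins, scaffolds of other ligases, had 0 of 7 calls by edgeR, 3 unadjusted p-values under 0.05 (20.3% of all genes), 1 call with DESeq2 (*CUL4B*, lower, against 2.93% of all genes) and a median log2 fold change of -0.22, with 4 of the 7 below both controls in both chaetocin samples (26% of all genes). Scaled by totals alone, the median was -0.05. *CUL4B* had 161 and 181 CPM in control cells and 111 and 112 CPM with chaetocin (log2 fold change -0.62, edgeR adjusted p = 0.0692), and was called in 5 of the 13 alternatives, without chaetocin sample 1 or 2 among them. *CUL4A* was at -0.46 (edgeR adjusted p = 0.147), and was called without chaetocin sample 1 (edgeR adjusted p = 0.0314). *CUL3*, at -0.12, was nearer to 0 than both of these, and the difference between cullins was not tested.

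Of 6 further relatives of the factors, 3 were tested, and 0 were called by edgeR or DESeq2 or had an unadjusted p under 0.05. *MAF* was at 0.47 (edgeR adjusted p = 0.469), and *MAFA* had 0 counts in all samples.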
